A study of Oryctolagus cuniculus with 4 samples.

Results

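The S100 proteins and the annexins are families of calcium-binding proteins that were both represented on a rabbit whole-transcriptome array. Their probes were chosen by name, as every probe that was not a control and whose description held "S100 calcium", "S100 protein" or "annexin", or whose gene symbol began with S100 or ANXA. This gave 73 of the 43603 probes and 24 of the 9762 genes that could be given a symbol. Of these, 41 probes belonged to 12 S100 genes and 27 probes to 9 annexin genes. The remaining 5 probes, for PANX1, PANX3 and S100PBP, were caught by the wording alone and are not family members. Within the families, S100A4, S100A14 and ANXA1 were selected on their mean ratio in the very comparison described here, so their values are a description and carry no test. Their 9 probes leave 64, which were picked by name and are reported with the limma test over all probes. The families themselves were chosen with earlier results of these data known.

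The samples were pools of 6-day-old blastocysts of New Zealand White rabbits. Parthenotes came from oocytes activated with electrical pulses without sperm and then exposed to cycloheximide and 6-DMAP, and were transferred to recipient does, so that they developed in vivo. The comparison group was untreated blastocysts of the same age, recovered from inseminated does. Each of the 4 arrays held a parthenote pool labelled with Cy3 and a fertilised pool labelled with Cy5. No array had its dyes swapped and all 4 lay on a single slide, so that dye and group cannot be told apart for any probe. A pool holds many cells, and fewer cells of a type and less RNA per cell cannot be told apart in it. The depth of an array is not a count, and the values rest on 4 arrays. What limited their precision was not tested.

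S100 proteins are small proteins with paired EF-hands, the helix-loop-helix units that take up calcium. On binding calcium they expose a surface that grips a partner, and most S100 genes of mammals lie side by side in a single cluster. Annexins bind acidic phospholipids of the membrane in the presence of calcium and take part in membrane repair, vesicle traffic and the resolution of inflammation. The families meet in defined complexes, of S100A10 with ANXA2 and of S100A11 with ANXA1. In epithelia, members of both families are abundant beneath the plasma membrane, and S100A8 and S100A9 are the main cytosolic proteins of neutrophils.

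The probes that carry the description are shown because names and sequences did not always match. All positions are those in the array file, whose genome build is not given in the sources used here. The S100A4 probe A_04_P048857 lay at chr13:38913671-38913730 on the forward strand. The array gave it no gene name, and it was identified through the annotation of its transcript in the study. The other 4 probes counted to S100A4 have no gene name of their own and were assigned to it because the array lists the same cDNA clone for them and for A_04_P048857. The probe that the array described as S100A4, A_04_P048852 at chr13:38918521-38918580, has a gene identifier that the RefSeq table of the assembly mOryCun1.1 assigns to S100A5, and is given here under that name. Each sequence is written 5′ to 3′, and capitals mark a run of 6 bases, the longest length that both probes share, which some other runs in them also reach.
S100A4 A_04_P048857: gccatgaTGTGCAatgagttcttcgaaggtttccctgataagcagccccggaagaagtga
S100A5 A_04_P048852: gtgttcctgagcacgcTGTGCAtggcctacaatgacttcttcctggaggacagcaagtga
The single S100A14 probe, A_04_P055612, lay at chr13:38850475-38850534.
S100A14 A_04_P055612: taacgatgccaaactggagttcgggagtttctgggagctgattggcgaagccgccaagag
For ANXA1, the probes A_04_P004273 and A_04_P004272, at chr1:59707948-59708006 and chr1:59707988-59708047, tile the transcript and share 20 bases, marked in capitals.
ANXA1 A_04_P004273: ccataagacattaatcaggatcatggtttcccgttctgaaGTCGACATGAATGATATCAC
ANXA1 A_04_P004272: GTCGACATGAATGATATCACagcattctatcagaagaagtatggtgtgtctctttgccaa

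S100A4, a regulator of cell motility that binds non-muscle myosin, was higher in the parthenote channel on all 4 arrays and with all 5 probes assigned to it. The processed signal, which is the intensity after background subtraction and dye correction, of A_04_P048857 was 155, 171, 270 and 208 in the parthenotes of arrays 1 to 4 and 20.6, 23.9, 29.96 and 25.4 in the fertilised embryos. The channels did not overlap, and both were well above background on every array by the criterion of the scanner software. The log2 ratio of parthenote over fertilised was 2.91, 2.83, 3.17 and 3.03, with a mean of 2.99 ± 0.15 (SD, n = 4), or 7.94-fold. Another 4 probes, whose starts were staggered over 3 bases and which therefore are not independent of each other, gave mean log2 ratios of 2.47, 2.59, 2.41 and 2.31. Of the 5 probes, A_04_P048857 was the dimmest and had the largest ratio. The brightest, A_04_P006779, was at 2.31, or 4.97-fold, and the mean over all 5 was 2.55, or 5.87-fold. With normexp (offset 50) and loess in place of the deposited ratio, the mean log2 ratio of A_04_P048857 was 1.32, or 1.59 once spots with a faulty local background were repaired.

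S100A14, an S100 protein of epithelia, had signals of 313, 468.5, 617 and 436 in parthenotes and 73.6, 105, 89.1 and 73.7 in fertilised embryos. Its log2 ratios were 2.09, 2.16, 2.79 and 2.57, with a mean of 2.40 ± 0.33 (SD, n = 4), and it was measured by 1 probe only. With normexp and loess the mean was 1.58.

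ANXA1, which restrains inflammation through formyl peptide receptors, had the highest signals of its probes with A_04_P004271, at 7725, 5282, 6670 and 5604 in parthenotes against 988, 1204, 1224 and 1243 in fertilised embryos. Its log2 ratios were 2.97, 2.13, 2.45 and 2.17, with a mean of 2.43 ± 0.38 (SD, n = 4). A_04_P004272 and A_04_P004273 gave means of 2.33 ± 0.36 and 2.31 ± 0.30 (SD, n = 4). Array 1 was the highest for all 3 probes, while for S100A14 it was the lowest. With normexp and loess A_04_P004271 was at 2.29, and its lowest value under any alternative was 1.66. For A_04_P004272 and A_04_P004273 the lowest values were 1.49 and 1.53.

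**Figure D1:**
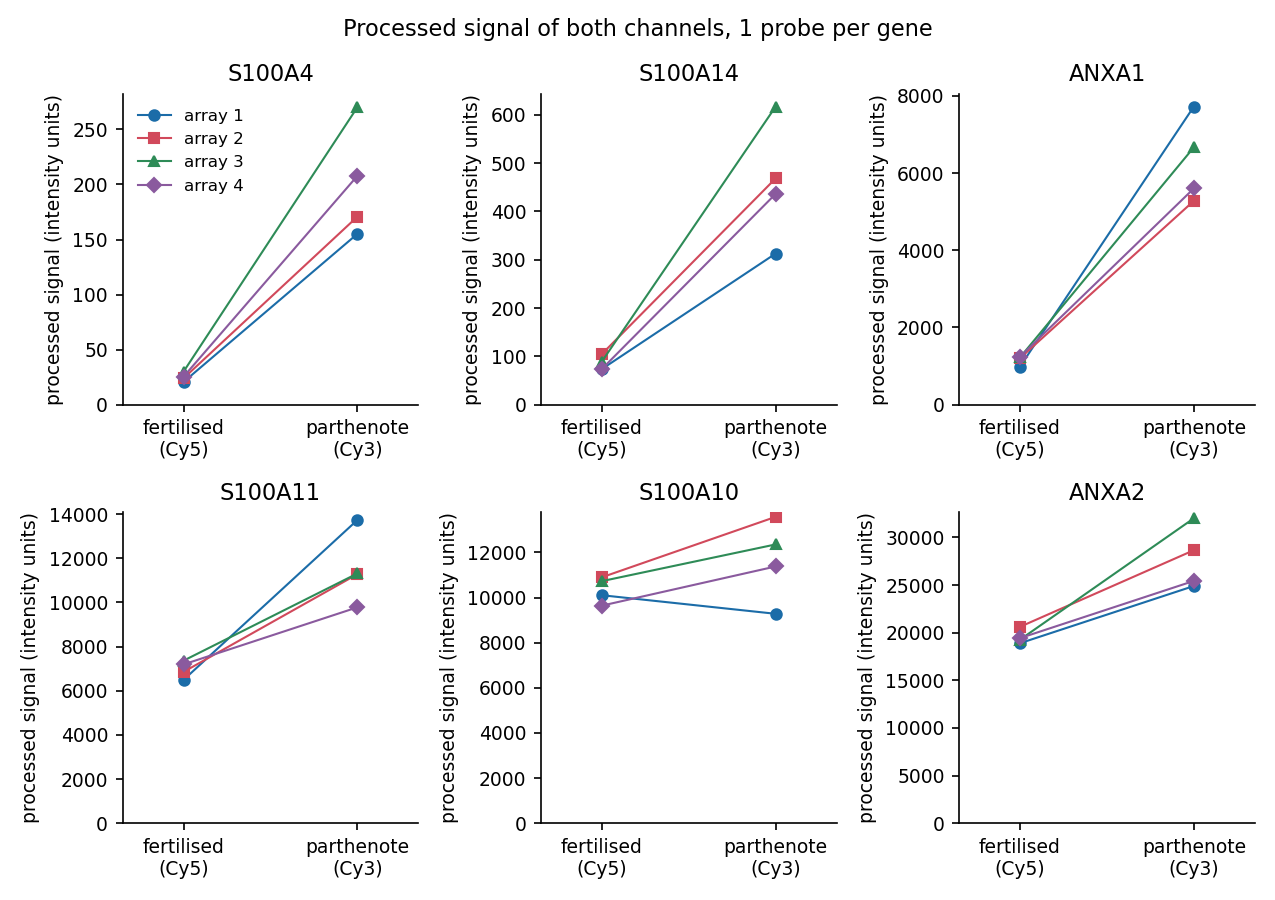
Processed signal (intensity units, linear axis from 0) of the fertilised and the parthenote channel for 1 probe each of S100A4, S100A14, ANXA1, S100A11, S100A10 and ANXA2, with a line for each of the 4 arrays. The parthenote values of S100A4 (155 to 270), S100A14 (313 to 617) and ANXA1 (5282 to 7725) lie far above the fertilised values, while the lines of S100A10 run in both directions. The S100A4 probe shown is A_04_P048857, the dimmest of the 5 and the one with the largest ratio.

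As a place among all probes tested, which is again a description of how these genes were picked, 194 of 43595 probes had a higher mean log2 ratio than A_04_P048857, and 309 to 393 than the other 4 S100A4 probes. For ANXA1 it was 355 for A_04_P004271 and 386 and 394 for the other probes. As a further description of that choice, S100A4 was set beside the rest of its family, leaving out S100A14, which was selected in the same way and was the higher on array 3, at 2.79. The mean of the S100A4 probes was 2.54, 2.41, 2.60 and 2.66 on arrays 1 to 4. Among the other S100 genes that were above background throughout, the nearest by the brightest probe was S100A11 on arrays 1 and 2, at 1.08 and 0.72, and S100A13 on arrays 3 and 4, at 0.72 and 0.63. The brightest probe of S100A8, at the edge of detection, was at 2.59, 0.36, 2.78 and 1.70. It was above background on 1 fertilised array only, so its place relative to S100A4 cannot be given. For ANXA1, the 7 other annexins whose brightest probe was above background throughout had medians of 0.25, 0.48, 0.23 and 0.09, against 2.85, 2.15, 2.35 and 2.08 for the mean of the ANXA1 probes. ANXA8 was the nearest on arrays 1 and 2, at 0.78 and 0.80, and ANXA11 on arrays 3 and 4, at 0.87 and 0.67.

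**Figure D2:**
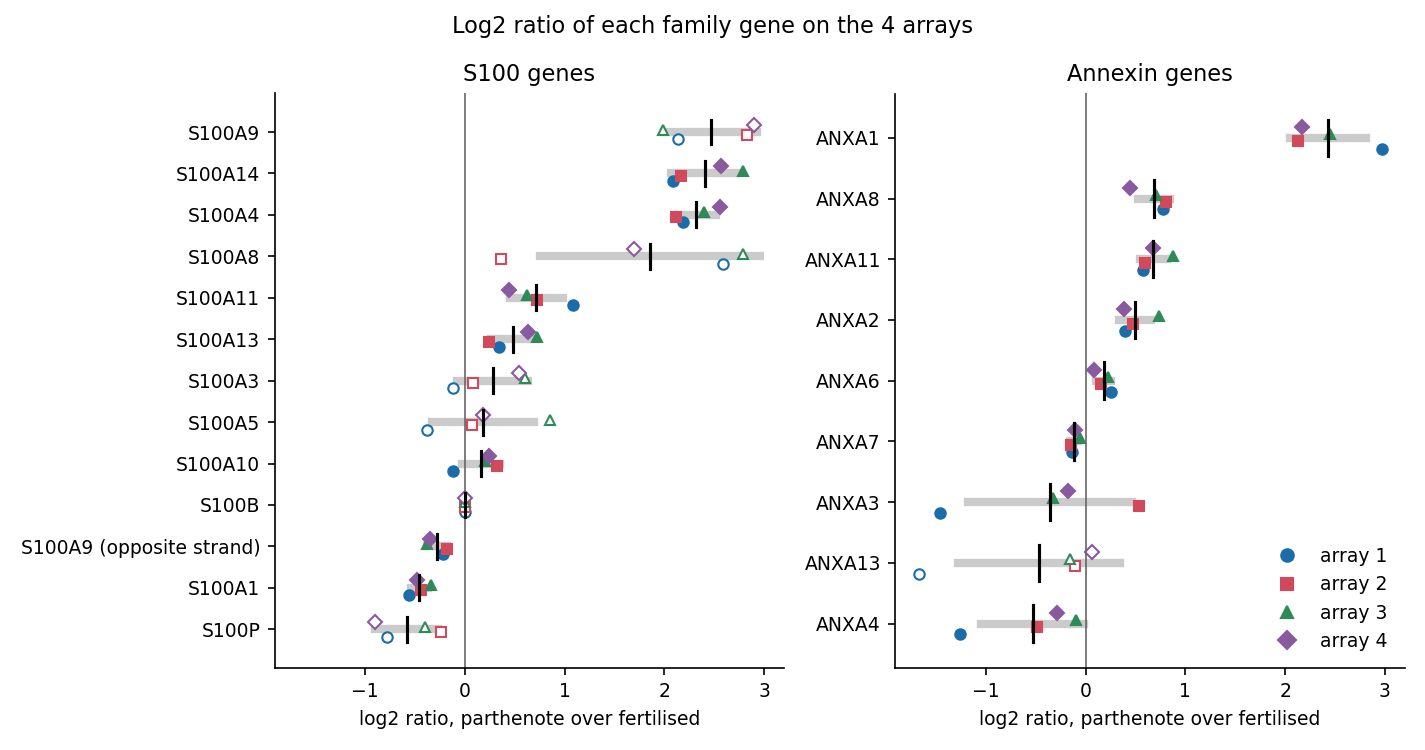
Log2 ratio of parthenote over fertilised for the brightest probe of each S100 gene (left) and annexin gene (right), with the transcript probe of S100A9 added; symbols are the 4 arrays, the black tick is their mean and the grey bar is ±1 SD. Filled symbols mark probes detected on every array in both channels. S100A4, S100A14 and ANXA1 lie above 2, while S100A11, ANXA8, ANXA11 and ANXA2 lie between 0.39 and 1.08; of these, S100A11, ANXA11 and ANXA2 fall below 0 when arrays are only median centred.

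Of the 43595 probes tested, 8996 (20.6%) passed an adjusted p of 0.05 in limma, with 9.53% higher and 11.1% lower in parthenotes. Of the 35 S100 probes outside S100A4 and S100A14, 10 were higher and 2 were lower, with a median log2 ratio of 0.31 against 0 for all probes. These probes are not independent, since several genes have probes staggered by single bases. The higher calls were 5 probes of S100A11, 4 of S100A8 and 1 of S100A9. The median of 0.31 is the value of A_04_P013126, a probe of S100A8 above background on no array. Ratios set to 0 where both channels were too dim enter both medians, so their difference is no measured shift of the family. By the brightest probe of each gene, 1 of 10 S100 genes was higher and 2 were lower, with a median of 0.17. Of all 9762 genes taken in the same way, 24.1% were called in either direction. Of the 24 annexin probes outside ANXA1, 9 were higher and 1 was lower, with a median of 0.16. The 20.6% includes probes too dim to be measured. With a filter that kept probes above background in 1 channel on all 4 arrays, 11305 of 26662 probes passed. Under that filter 9 of 23 annexin probes and 10 of 16 S100 probes passed, so the annexin share was not above that of all measured probes. By gene, 4 of 8 annexins were higher and 1 was lower, with a median of 0.033. The direction of the annexin calls did not hold when arrays were median centred without loess, where 16 probes were lower and none was higher. Without array 1, 2, 3 or 4, respectively 7, 3, 4 and 1 of the 12 S100 calls and 5, 0, 6 and 1 of the 10 annexin calls passed again.

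S100A11, the partner of ANXA1, rose in parthenotes by all 5 of its probes, though under median centring its ratio turned to -0.02. The brightest, A_04_P005058, had signals of 13733, 11278, 11310 and 9777 in parthenotes and 6490, 6851, 7360 and 7190 in fertilised embryos, without overlap. Its log2 ratios were 1.08, 0.72, 0.62 and 0.44, with a mean of 0.72 ± 0.27 (SD, n = 4; limma adjusted p = 0.0406). The 5 probes start within 4 bases of each other, and they ranged from 0.69 to 0.72. The call of A_04_P005058 was lost with each array left out in turn, with adjusted p between 0.0537 and 0.147, and A_04_P005057 and A_04_P005059 passed only without array 1.

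S100A10, the partner of ANXA2, did not pass the test, but under median centring it was lower at -0.58 (limma adjusted p = 8.9e-06). The brightest probe, A_04_P003282, gave log2 ratios of -0.12, 0.32, 0.20 and 0.24, a mean of 0.16 ± 0.19 (SD, n = 4; limma adjusted p = 0.315), so that array 1 differed in sign from the others. The signals of 9279 to 13576 in parthenotes overlapped those of 9640 to 10896 in fertilised embryos. Another 4 probes on the same strand had means from 0.15 to 0.28. A further 3 probes named S100A10 lie on the opposite strand. A_04_P016183 was above background throughout, with a mean of 0.10 ± 0.21 (SD, n = 4), and the other two were above background on no array. ANXA2 itself, a calcium-dependent link between membrane and actin, had a probe with log2 ratios of 0.40, 0.48, 0.73 and 0.39, and rose by 0.50 ± 0.16 (SD, n = 4; limma adjusted p = 0.0312), although under median centring it was at -0.33. Its signals, 24904 to 32018 in parthenotes and 18896 to 20619 in fertilised embryos, did not overlap. Without array 1, 2 or 4 the adjusted p was 0.0797, 0.121 and 0.112, and without array 3 it was 0.0396.

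S100A1, best known as a regulator of calcium handling in muscle, was lower in parthenotes under every alternative run. Its signals were 707, 744, 698 and 664.5 in parthenotes and 1041, 1012, 887 and 927 in fertilised embryos, again without overlap. The log2 ratios were -0.56, -0.44, -0.35 and -0.48, a mean of -0.46 ± 0.09 (SD, n = 4; limma adjusted p = 0.0146). Without array 2 or 4 the adjusted p was 0.0739 and 0.0859. S100A13, which takes part in the release of proteins without a signal peptide, gave 0.34, 0.24, 0.72 and 0.63, a mean of 0.49 ± 0.23 (SD, n = 4; limma adjusted p = 0.0607). It was above 0 on 4 of 4 arrays but missed the threshold. It passed with normexp and loess (limma adjusted p = 0.0412), with repaired background (0.00831), with the ratio of processed signals (0.0180) and with the dim-probe filter (0.0153), while under median centring it was at -0.13.

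S100A3 and S100A5 flank S100A4 on the chromosome and were dim. S100A3 was well above background on 2 arrays in each channel, with a mean log2 ratio of 0.28 ± 0.35 (SD, n = 4; limma adjusted p = 0.336). S100A5, the probe described as S100A4 by the array, was above background in the fertilised channel of 1 array only. Its processed signals were 6.58, 15.6, 9.86 and 3.01 in parthenotes and 8.56, 14.8, 5.48 and 2.65 in fertilised embryos, which overlap, and its mean was 0.18 ± 0.51 (SD, n = 4; limma adjusted p = 0.673). A search of the array by its own descriptions would thus have returned this probe for S100A4, and none of the 5 probes with ratios above 2.

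S100A8 and S100A9 form calprotectin, the calcium- and zinc-binding complex of neutrophils and inflamed epithelia. Both were at the edge of detection, and their probes disagreed. For S100A8, 5 probes staggered by single bases had mean log2 ratios of 1.86, 2.11, 2.86, 3.28 and 2.66, of which the brightest, A_04_P003501, missed the threshold and the other 4 passed. The remaining 5 probes target positions further upstream and had means from 0.31 to 0.73, and none passed. The probe with the largest mean, A_04_P003504 at chr13:39004946-39005005, and A_04_P013126 at chr13:39004906-39004964 show the difference, with the longest run that both hold, 15 bases, in capitals.
S100A8 A_04_P003504: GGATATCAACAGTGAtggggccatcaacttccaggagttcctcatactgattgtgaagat
S100A8 A_04_P013126: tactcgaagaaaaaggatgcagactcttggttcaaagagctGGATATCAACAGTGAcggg
A_04_P003504 had signals of 23.8, 20.7, 32.6 and 24.8 in parthenotes, well above background on 4 of 4 arrays, and of 2.74, 2.97, 2.54 and 2.15 in fertilised embryos, on no array above background. The fertilised level is therefore only a bound. On each array the fertilised signal of this probe was replaced by the lowest signal well above background wherever it was below that. After normexp with repaired background, loess and scaling between channels, S100A8 was thus at least 1.42-fold higher in parthenotes with this probe. This value holds for that processing alone and is open to dye bias. The deposited ratio of the probe passed the test (limma adjusted p = 0.00838). For A_04_P003503 and A_04_P003505, above background in parthenotes on 2 of 4 arrays, the same calculation gave 1.36-fold and 1.29-fold. These averages include arrays where the parthenote signal was not above background, so they are no bounds. A_04_P013126 was above background on no array in either channel. With normexp and loess without the repair the mean log2 ratio of A_04_P003504 was 0.47 in place of 3.28, which is less than that bound. Without array 4 its adjusted p was 0.0572 and that of A_04_P003503 was 0.0671, while A_04_P003502 was lost with any array left out.

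The probes named for S100A9 ran in opposite directions. A_04_P043657 was designed on the predicted mRNA of the gene and A_04_P013121 on a cDNA clone, and each holds 56 bases of the other as the reverse complement, marked in capitals. They lie at chr13:39032371-39033712 on the reverse strand and chr13:39032375-39033716 on the forward strand.
S100A9 A_04_P043657: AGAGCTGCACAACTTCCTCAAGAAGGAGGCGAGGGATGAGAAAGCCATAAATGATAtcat
S100A9 A_04_P013121: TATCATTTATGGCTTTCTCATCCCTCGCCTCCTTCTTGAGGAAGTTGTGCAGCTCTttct
The mRNA probe had signals of 12.7, 22.0, 27.1 and 17.1 in parthenotes, above background on 3 arrays, and of 2.89, 3.09, 6.84 and 2.29 in fertilised embryos, above background on none. The same calculation gave 1.27-fold for it, which is no bound because an array without parthenote signal above background is averaged in. The deposited ratio passed the test (limma adjusted p = 0.0143), and without array 2, 3 or 4 the adjusted p was 0.0671, 0.0506 and 0.0734. Its mean log2 ratio was 2.46 ± 0.47 (SD, n = 4), or 0.26 with normexp and loess without the repair. The calculated 1.27-fold is 0.34 on the log2 scale. The probe on the opposite strand was above background in both channels of all arrays, with log2 ratios of -0.22, -0.18, -0.38 and -0.35 and a mean of -0.28 ± 0.10 (SD, n = 4; limma adjusted p = 0.0356). This probe is the brighter of the pair, so the count by gene lists S100A9 as lower, and the call was lost with any array left out, with adjusted p from 0.0846 to 0.141. With normexp and loess its ratio was -0.13. The mean over both probes of S100A9 was 1.09, which mixes opposite strands and is no estimate for the gene.

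S100B, the S100 protein of glia, was not above background in either channel on any array with any of its 5 probes. S100P, first described in placenta, was above background in fertilised embryos on 4 arrays and in parthenotes on 1, with log2 ratios of -0.79, -0.24, -0.40 and -0.91 and a mean of -0.58 ± 0.31 (SD, n = 4; limma adjusted p = 0.078). It was below 0 on 4 of 4 arrays.

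**Figure D3:**
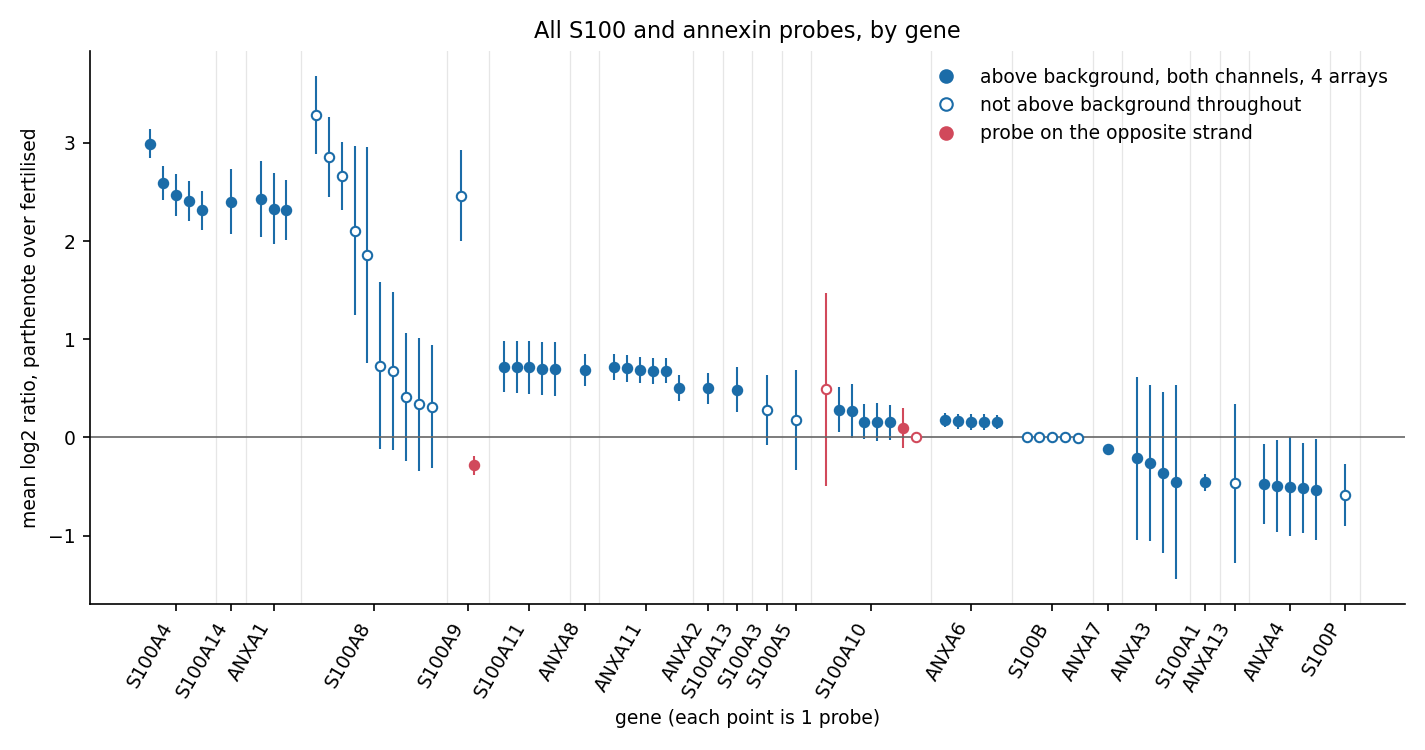
Mean log2 ratio of parthenote over fertilised for every S100 and annexin probe, grouped by gene, with bars of ±1 SD over the 4 arrays. Filled points were detected on every array in both channels, open points were not, and red points lie on the opposite strand. The probes of S100A8 spread from 0.31 to 3.28, and those of S100A9 lie at -0.28 and 2.46.

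Among the annexins, ANXA11, a tether of RNA granules to lysosomes, and ANXA8, an annexin of squamous epithelia, rose by amounts like that of S100A11, although under median centring they were at -0.05 and 0.01. The brightest ANXA11 probe, A_04_P001350, had signals of 10075.5, 9814, 12356 and 10577 in parthenotes and 6739, 6488, 6756 and 6637 in fertilised embryos, without overlap, and a mean log2 ratio of 0.68 ± 0.13 (SD, n = 4; limma adjusted p = 0.0147). Of its 6 probes, 5 start within 4 bases, and the other, A_04_P004856, targets another stretch of the transcript and gave 0.51 ± 0.13 (SD, n = 4; limma adjusted p = 0.0223). Without array 2 or 4 the adjusted p of A_04_P001350 was 0.0674 and 0.0862, and A_04_P004856 was lost with any array left out. ANXA8 gave 0.78, 0.80, 0.70 and 0.45, a mean of 0.68 ± 0.16 (SD, n = 4; limma adjusted p = 0.0196), from signals of 6778 to 8005 in parthenotes and 4209 to 4970 in fertilised embryos. Without array 1, 2 or 3 its adjusted p was 0.0652, 0.0841 and 0.0874.

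ANXA6 and ANXA7 had small mean ratios. ANXA6, which has 2 annexin cores in place of 1 and is tied to cholesterol traffic, gave 0.18 ± 0.07 (SD, n = 4; limma adjusted p = 0.0481) with A_04_P073138 and was at -0.54 under median centring. The other 4 probes, at 0.16 each, missed the threshold. ANXA7, a membrane-fusion annexin, was lower by a mean log2 ratio of -0.11 ± 0.04 (SD, n = 4; limma adjusted p = 0.0405), and was at -0.81 under median centring (limma adjusted p = 9.4e-09). Both calls were lost with any array left out, where the adjusted p lay between 0.0877 and 0.160 for ANXA6 and between 0.0556 and 0.154 for ANXA7.

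ANXA3, ANXA4 and ANXA13 did not pass the test, and array 1 was the lowest for all 3. Under median centring ANXA3 was lower at -0.99 (limma adjusted p = 1.4e-06) and ANXA4 at -0.56 (limma adjusted p = 8.8e-05). ANXA3, an annexin of secretory granules, had signals with A_04_P101357 of 1308, 2305, 2473 and 2042 in parthenotes and 3589, 1594, 3109 and 2304 in fertilised embryos, which overlap. Its log2 ratios were -1.46, 0.53, -0.33 and -0.17, a mean of -0.36 ± 0.82 (SD, n = 4; limma adjusted p = 0.582), and all 4 of its probes were above 0 on array 2 and below 0 on the other arrays. ANXA4, an annexin of secretory epithelia, gave -1.26, -0.49, -0.09 and -0.29 with A_04_P097427, a mean of -0.53 ± 0.51 (SD, n = 4; limma adjusted p = 0.221), with 5 probes below 0 on all 4 arrays. ANXA13, an annexin of intestine and kidney, was above background in the fertilised channel of 1 array only and gave -1.67 on array 1 and between -0.16 and 0.07 on the others. ANXA1 had its highest value, 2.97, on array 1.

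Of the S100 genes with a position, S100B lay on chromosome 14 and the others on chromosome 13, with the following mean log2 ratios. S100A1 at -0.46, S100A13 at 0.49 and S100A14 at 2.40 followed each other at -82.4, -66.4 and -63.2 kb from the S100A4 probe. S100A3 lay at -4.53 kb and S100A5 at 4.85 kb, at 0.28 and 0.18, both dim. S100A8 followed from 91.2 kb, with probes from 0.31 to 3.28, and S100A9 at 119.3 kb, with probes at -0.28 and 2.46. S100A11 lay at 1256 kb and S100A10 from 1289 to 1293 kb.

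**Figure D4:**
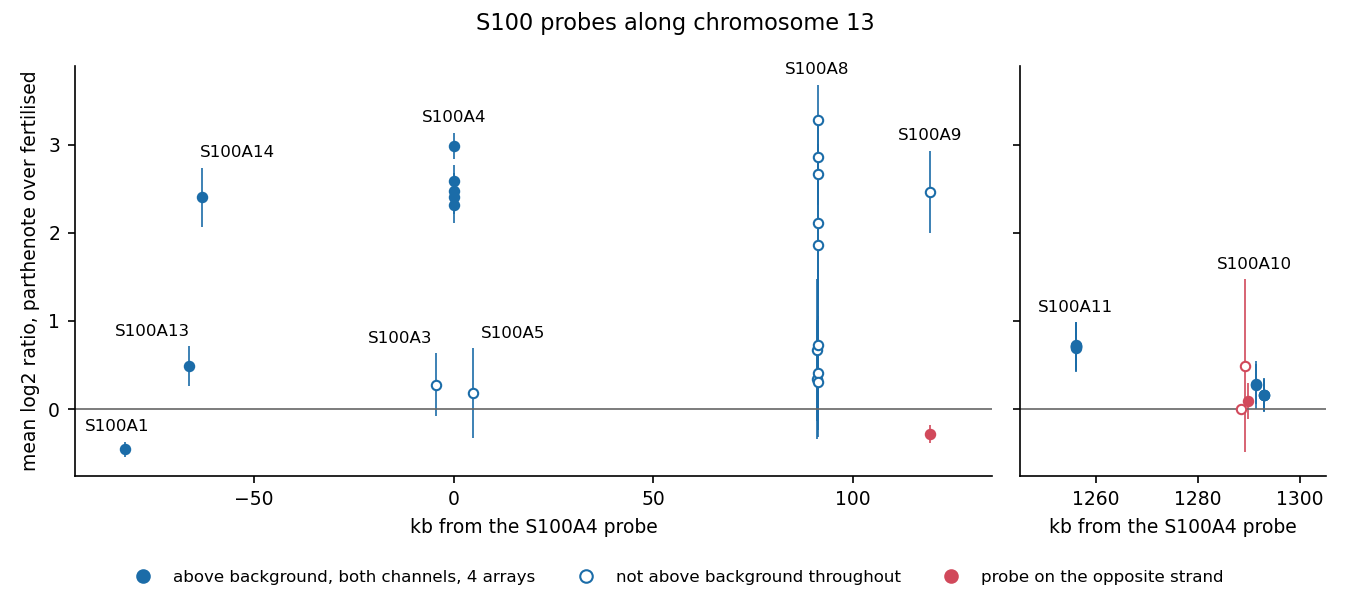
Mean log2 ratio of parthenote over fertilised (±1 SD over 4 arrays) of each S100 probe against its distance in kb from the S100A4 probe A_04_P048857, in 2 panels because S100A11 and S100A10 lie from 1256 kb on. Filled points were detected on every array in both channels and red points lie on the opposite strand. S100A14 (2.40) and S100A4 (2.31 to 2.99) stand above S100A13 (0.49), S100A3 (0.28) and S100A5 (0.18) between and beside them.

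Genes that work with these families were taken from 3 lists, by the brightest probe of each gene, as for the 24.1% of all genes that were called in either direction. The lists were chosen with earlier results of these data known, and the study itself listed PLAU and CAPS as raised, so the counts are a description. Among binding partners and receptors, 9 of 20 measured genes rose and none fell, with a median log2 ratio of 0.39, while under median centring 6 rose and 7 fell. Without array 1, 2, 3 or 4, 3, 1, 2 and 3 genes of this list passed. PLAU, the plasminogen activator urokinase, rose by 2.36 ± 0.85 (SD, n = 4; limma adjusted p = 0.0374). EMB, a membrane glycoprotein, rose by 1.12 ± 0.06 (SD, n = 4; limma adjusted p = 0.00428), and CTSB, the protease cathepsin B, by 0.62 ± 0.19 (SD, n = 4; limma adjusted p = 0.0297), the latter at -0.02 under median centring. BSG, or basigin, a receptor of S100A9, rose by 0.36 ± 0.05 (SD, n = 4; limma adjusted p = 0.0103) and was at -0.48 under median centring. CACYBP, which binds S100A6, rose by 0.22 ± 0.08 (SD, n = 4; limma adjusted p = 0.0416) and was at -0.65 under that setting. CD36, a scavenger receptor, ALCAM, an adhesion protein, and DYSF, the membrane repair protein dysferlin, rose by 0.71, 0.40 and 0.20, and were at -0.01, 0.02 and -0.43 under median centring. TLR4, a receptor of calprotectin, was above background in the parthenote channel of 1 array and in no fertilised channel. With normexp, loess and repaired background, PLAU was at 1.07 and EMB at 0.35. The formyl peptide receptors FPR1 and FPR2, to which ANXA1 binds, were not above background on any array.

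Of 18 measured genes for other EF-hand proteins, 8 rose and 1 fell, with a median of 0.22, but under median centring 3 rose and 11 fell. Without array 1, 2, 3 or 4, 7, 5, 4 and 3 of them passed. CAPS, a calcium-binding protein of ciliated epithelia, rose by 2.48 ± 0.45 (SD, n = 4; limma adjusted p = 0.0135), and GCA, the granulocyte protein grancalcin, by 1.12 ± 0.35 (SD, n = 4; limma adjusted p = 0.0302). Under median centring CAPS was at 1.59 and GCA at 0.38. LCP1, an actin-bundling plastin, rose by 0.67 ± 0.08 (SD, n = 4; limma adjusted p = 0.00811), and was at 0.32 with normexp, loess and repaired background. CAPN2 and CAPNS1, subunits of calpain, RCN2, a reticulocalbin, and CETN2, a centrin, rose by 0.62, 0.53, 0.57 and 0.35, and under median centring were at -0.22, -0.19, -0.05 and -0.35. CALB2, or calretinin, rose by 0.52 and was at 0.24 with normexp, loess and repaired background. CALB1, the calcium buffer calbindin, was lower by a mean log2 ratio of -0.52 ± 0.06 (SD, n = 4; limma adjusted p = 0.00772), also under median centring. Among C2-domain proteins, which like annexins bind membranes in the presence of calcium, 2 of 14 were called higher and 1 lower, with a median of -0.10. This share was no higher than that of all genes, and with an array left out 1, 1, 1 and 0 passed. Called higher were CPNE1 at 0.34, which was at -0.12 under median centring, and SYTL4. As SYTL4 was above background on no array in either channel, no rise was measured for it.

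Embryos were collected by flushing the uterus, and markers of other cell types were measured on the same arrays. The marker lists were chosen with earlier results of these data known, so their counts are a description and no independent support. The study itself listed OVGP1, SCGB1A1, CLU, CAPS, CD48 and the probe counted here to PIGR as raised in parthenotes on these arrays. Of 8 measured markers of the secretory epithelium of oviduct and uterus (of 16), 6 passed the threshold, all higher in parthenotes, against 24.1% of all genes called, with medians of 2.19, 2.17, 2.90 and 2.60 on arrays 1 to 4. On the same arrays the mean of the probes was 2.54, 2.41, 2.60 and 2.66 for S100A4 and 2.85, 2.15, 2.35 and 2.08 for ANXA1, and S100A14 was at 2.09, 2.16, 2.79 and 2.57. OVGP1, the oviductal glycoprotein, rose by 3.87 ± 0.29 (SD, n = 4; limma adjusted p = 0.00513) and SCGB1A1, uteroglobin, by 2.75 ± 0.45 (SD, n = 4; limma adjusted p = 0.0119). SPP1, or osteopontin, PIGR, the carrier of secreted antibodies, CLU, or clusterin, and PGR, the progesterone receptor, rose by 4.55, 2.90, 2.12 and 2.08. With normexp, loess and repaired background SPP1 was at 2.27, PIGR at 1.84 and PGR, which was above background on 1 fertilised array, at 0.51. Under median centring OVGP1 was at 2.85, SCGB1A1 at 1.83 and CLU at 1.32. The summed processed signal of this list was 10135, 15867, 35778 and 21043 in parthenotes and 5777, 6896, 8571 and 4850 in fertilised embryos. Its brightest probe was that of WFDC2, at a mean log2 ratio of 0.01 ± 1.04 (SD, n = 4), and ESR1 was above background on no array. With arrays 1 to 4 left out in turn, 3, 2, 3 and 1 of the 8 markers passed. In fertilised embryos 5 of the 8 markers were above background on all arrays, and in parthenotes 7 were.

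Of 9 measured markers of motile ciliated cells, 5 rose, against 24.1% of all genes called. The medians of the list were 2.47, 1.21, 2.79 and 2.38. Its summed signal was 1999, 1054, 3331 and 2083 in parthenotes against 432, 350, 495 and 392 in fertilised embryos. In fertilised embryos 3 of the 9 markers were above background on all arrays, and in parthenotes 5 were. The medians therefore rest largely on markers not measured on every fertilised array, and have no exact size. Of the 3, CAPS rose, and CCDC39 at 1.59 and SPAG6 at 1.08 did not pass. With each array left out in the same order, 1, 3, 0 and 0 of the 9 passed. RSPH1, of the radial spoke, and CFAP52 were above background on no fertilised array, and with normexp, loess and repaired background they were at 0.48 and 0.61. The brightest probe was that of CAPS, which is also in the list of EF-hand proteins, and FOXJ1, the master regulator of motile cilia, was above background on no array. Among leukocyte markers 4 of 11 rose, with a median of 0.14, against 24.1% of all genes called, and without array 1, 2, 3 or 4 it was 3, 0, 1 and 1. CD48, a surface protein of leukocytes, rose by 1.85 ± 0.30 (SD, n = 4; limma adjusted p = 0.0116) and was at 0.86 with normexp, loess and repaired background. CD68, a macrophage marker, rose by 0.45 ± 0.18 (SD, n = 4; limma adjusted p = 0.0434), with 0.26 under that setting, and CD3D, a T cell marker, was at 0.14 and under median centring at -0.06. The defining PTPRC and CD3E were above background on no array. CD14 was the brightest and rose by 0.92 ± 0.15 (SD, n = 4; limma adjusted p = 0.0122), and was at 0.29 under median centring. The summed signal of this list was 638, 623, 671 and 639 in parthenotes and 455, 444, 422 and 452 in fertilised embryos. Of 11 stromal and muscle markers 1 rose, TAGLN, the brightest, which was at -0.02 under median centring and did not pass with any array left out, and COL1A1, PDGFRB, ACTA2, MYH11 and POSTN were above background on no array. The sums of the stromal list were 5079, 3668, 4711 and 3859 in parthenotes and 2659, 2345, 3226 and 2847 in fertilised embryos. The part of such cells in the S100 and annexin values was not tested.

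Among markers of the blastocyst itself, 1 of 8 for trophectoderm rose and 1 fell, with a median of -0.21, a share close to the 24.1% of all genes. Both calls were lost without array 2, 3 or 4, as were those of the epiblast and primitive endoderm lists. GATA2, a trophectoderm transcription factor, was lower by a mean log2 ratio of -0.64 ± 0.26 (SD, n = 4; limma adjusted p = 0.0451), and KRT8, the brightest, rose by 0.58 ± 0.22 (SD, n = 4; limma adjusted p = 0.0408), though it was at -0.21 under median centring. Of 3 epiblast markers 1 rose, POU5F1, by 0.21 ± 0.03 (SD, n = 4; limma adjusted p = 0.0118), which was at -0.52 under that setting. Of 5 primitive endoderm markers, COL4A1 was higher at 0.35, but at -0.24 under median centring, and AFP was lower, above background on 4 fertilised and 0 parthenote channels. The summed signal of the trophectoderm list was 29407, 42910, 40511 and 34298 in parthenotes and 31475, 33318, 32335 and 29517 in fertilised embryos, and ELF5 was above background on no array. The sums were 14632, 12107, 12719 and 11810 against 11532, 10703, 11389 and 10359 for the epiblast list, and 1482, 2381, 1648 and 1565 against 2312, 2195, 1989 and 1576 for the primitive endoderm list, whose brightest probe was that of APOA1. KRT8 and POU5F1, markers of the labelled blastocyst, were well above background in both channels of all arrays.

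**Figure D5:**
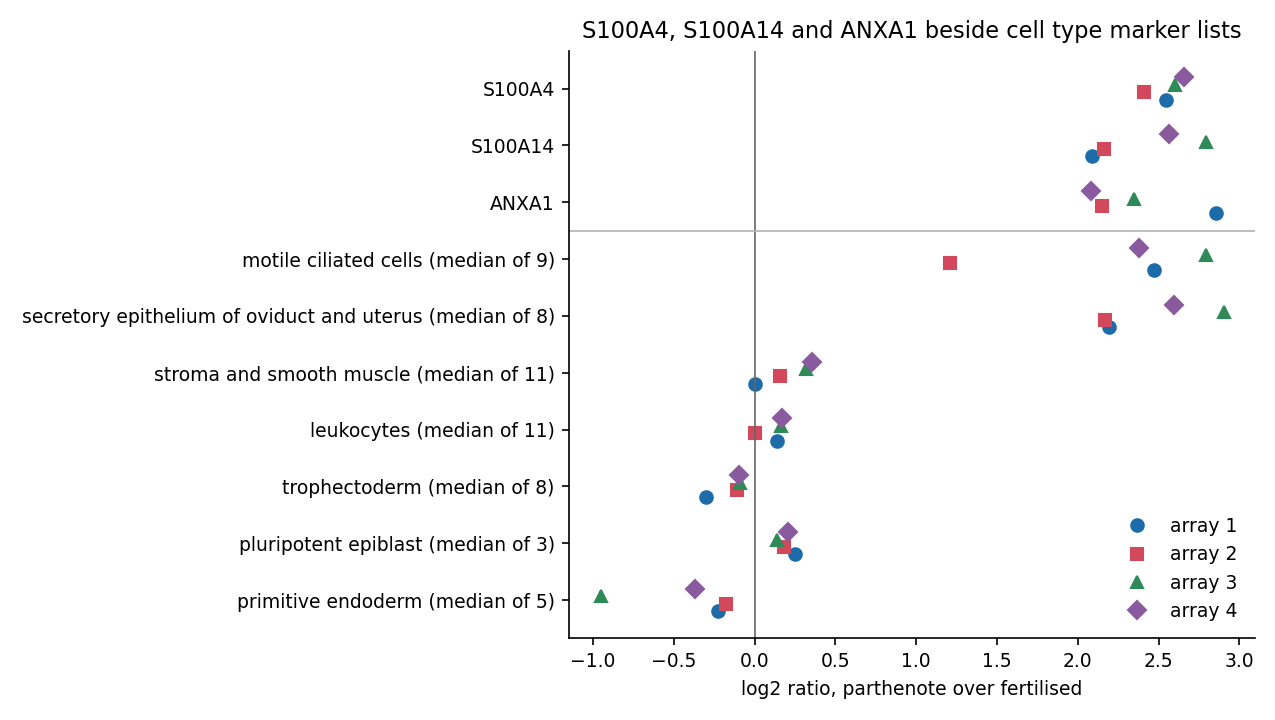
Log2 ratio of parthenote over fertilised on the 4 arrays for S100A4, S100A14 and ANXA1 (mean of their probes, above the line) and the median of each cell type marker list (below the line, number of measured genes in brackets). The selected genes lie between 2.08 and 2.85, and the oviduct and uterus list between 2.17 and 2.90. The ciliated list lies between 1.21 and 2.79. Most of its markers were not above background on every fertilised array, so these medians have no exact size. The lists of blastocyst lineages, stroma and leukocytes lie between -0.95 and 0.35.

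Of the 5 probes that the wording of the rule caught from outside the families, that of S100PBP was called. S100PBP, a nuclear protein that binds S100P, was lower in parthenotes, with log2 ratios of -0.35, -0.31, -0.30 and -0.32 and a mean of -0.32 ± 0.02 (SD, n = 4; limma adjusted p = 0.00521), and it passed again with each array left out. The pannexins form membrane channels and are unrelated to annexins, and the probes of PANX1 and PANX3 were above background on no array.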

How the data were processed

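Each of the 4 two-colour arrays was scanned and quantified by the authors with Agilent Feature Extraction 10.10.1.1, per the submitters' processing notes. The deposited array files hold, per spot, the log10 ratio of Cy5 over Cy3, set to 0 where both channels were too dim, and the processed signal, mean signal and local background as intensities, of which the processed signal was corrected for background and dye by the authors. The deposited value table holds the same log10 ratio with its sign turned.

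Here the log10 ratio was turned to the log2 ratio of parthenote over fertilised, control spots and spots marked as outliers were left out, and spots of a probe were averaged. The mean was tested against 0 with limma 3.58.1 (lmFit and eBayes) in R 4.3.3, two-sided, with Benjamini-Hochberg adjustment over 43595 probes and a threshold of 0.05. Arrays held 43803 spots, of which 25805 to 26339 in the parthenote and 27508 to 27835 in the fertilised channel were well above background. The members and lists were chosen with earlier results of these data known. Every S100 and annexin gene was named by its brightest probe, all probes of S100A4, S100A14 and ANXA1 were given, and list genes could be named where they passed with the same sign on all arrays. Exceptions, named after their values were seen, are list genes at or near background, WFDC2, APOA1, CCDC39, SPAG6, and further probes of family genes.

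The pools of an array were paired by the ratio. Deviations of channels on the same array correlated at 0.60, 0.63, 0.62 and 0.65. The p-values measure the spread between these pools of embryos. Symbols came from RefSeq accessions for 12536 probes, gene identifiers for 8577, another probe of the transcript for 632, the array for 438 and the study's annotation for 1, and 21419 had none. Alternatives were normexp (offset 50) with loess or median centring, the ratio of processed signals, a filter on dim probes, the methods' t-test, unpaired channels, marked spots kept and each array left out. A further one, added after seeing the data, repaired the local background of 11 spots before normexp. On simulated data for this comparison, run over 43595 probes, 17, 33, 34 and 39 of 50 probes changed by 1.5, 2, 3 and 5-fold were recovered. Only 200 probes were changed there, against 8996 called in the data, so these rates do not measure the power of the real comparison.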

Additional observations from a re-analysis of the deposited data

Results flagged for a closer look

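In each of 41 sets of 4 values, the gap between a single array and its nearest neighbour was compared with the whole range, and a gap above the critical value of Dixon for 4 values marked it, which chance gives in about 1 in 20 sets. ANXA13 was marked for array 1, at a log2 ratio of -1.67 against values between -0.16 and 0.07 on the others. The median of the trophectoderm markers was marked for array 1, at -0.30 against -0.11, -0.09 and -0.09. PANX1 at -0.050 on array 4 and PANX3 at -1.06 on array 3 were marked because the other arrays were set to 0, with both channels too dim.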

How the results depend on the processing

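S100A4, S100A14 and ANXA1 kept a ratio above 0 under every alternative run, at 1.23 to 3.04 for A_04_P048857, 1.28 to 2.51 for S100A14 and 1.66 to 2.53 for A_04_P004271. Counts past the threshold moved more, and the cause was not tested. Of S100 probes (12), 26 passed with normexp and median centring, 22 with the ratio of processed signals, 5 with the methods' t-test and 1 to 11 with an array left out. Of annexin probes (10), 16 passed with median centring and 0 to 6 with an array left out. Of all probes (8996), 31610 passed with median centring, 21399 with the ratio of processed signals (65.0% of them higher, against 46.2%), 4435 with the methods' t-test and 1239 to 5736 with an array left out. Of S100 genes (3), 6 passed with median centring, 7 with processed signals, 5 with the dim-probe filter, 5 with repaired background, 1 with the methods' t-test and 0 to 1 with an array left out. Of annexin genes (5), 2 passed with the methods' t-test and 0 to 2 with an array left out. Without the replicate block, that is without pairing the pools of an array, 16358 of all probes (68.0% higher), 18 S100 probes, 8 annexin probes and 3 annexin genes passed. Median centring turned the sign of S100A10 (-0.58), S100A11 (-0.022), ANXA11 (-0.053), ANXA2 (-0.33), ANXA6 (-0.54), PANX1 (0.26), S100A13 (-0.13), ANXA13 (0.19) and PANX3 (0.20). The mean over both S100A9 probes (1.09) differed in sign from the brightest probe, but it mixes probes of opposite strands and is no estimate for the gene. Members not above background in a channel, such as S100A8, S100A9 and S100A5, have only bounds there.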
